A study of Mus musculus with 2 samples.

Results

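The p53-target-rich ES cells are the 107 cells, of 2141 eligible cells among 10389 barcodes, that gave the largest share of their transcripts from 6 genes activated by p53: *Cdkn1a*, *Mdm2*, *Ccng1*, *Trp53inp1*, *Phlda3* and *Zmat3*. They were chosen by these measured values, as the top 5% of the eligible cells within each library, so 68 of 1362 wild-type cells and 39 of 779 *Lin28a* knockout cells are members and the rule sets this share. An eligible cell had at least 2000 UMIs (unique molecular identifiers, each counting 1 captured transcript), 0.5% to 20% of them mitochondrial, at least 5% from ribosomal protein genes, and under 0.3% from the collagen genes *Col1a1*, *Col1a2* and *Col3a1*. The remaining 95% of each library, 1294 wild-type and 740 knockout cells, are called the rest.

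The study profiled mouse embryonic stem (ES) cells derived from the inner cell mass with inDrop droplet sequencing, in 1 wild-type library, labelled untreated, and 1 library with a Lin28a knockout. Both cultures were kept for 2 days in LIF/2i medium on gelatin with mouse embryonic fibroblast (MEF) feeder cells, and each library came from 1 clone, the wild-type one a clone that had also been transfected. The knockout was made by CRISPR/Cas9 cutting in the second exon of *Lin28a*, an RNA-binding protein of pluripotent cells. With 1 library per condition no difference between the conditions has a replicate check, no test was run and no p-value is given. All intervals are 95% counting intervals and cover counting error only.

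p53 is a transcription factor that is held low by MDM2, a ubiquitin ligase whose own gene p53 switches on. After DNA damage, nucleolar or ribosomal stress and other insults p53 accumulates and activates genes that halt the cell cycle (*Cdkn1a*, encoding p21), restrain p53 itself (*Mdm2*, *Ccng1*), promote cell death or autophagy (*Trp53inp1*), damp AKT signalling (*Phlda3*) or bind RNA (*Zmat3*). In mouse ES cells p53 is abundant even in undisturbed culture, and p53 activity is linked to differentiation and to cell death.

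p53 binds a 20-base response element built of a pair of 10-base half-sites, each with 3 purines, a C, a pair of A or T bases, a G and 3 pyrimidines. The RefSeq promoter windows of GRCm38.p6, which run from 250 bases before to 50 bases after a start site, were searched for it on both strands at once, since the element reads the same on either strand. A window was counted when at least 18 of the 20 letters fitted and the C and G of both half-sites were in place. Such a stretch is in 0.392% of the 27025 genes with a window. Of the 6 genes of the choice 4 have a window and 2 hold such a stretch. Of 52 further p53 targets, described below, 42 have a window and 3 hold one, or 7.14%. *Trp53inp1* and *Zmat3* are not in the table. The best stretch had 15 fitting letters at *Phlda3* and 11 at *Mdm2*. The 5 matching stretches are shown because they belong to the genes by which, or beside which, these cells were described. The capitals mark the C, the 2 bases between and the G of each half-site.
Cdkn1a, chr17:29090928-29090947, plus strand, 19 letters: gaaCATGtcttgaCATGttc
Ccng1, chr11:40755462-40755481, minus strand, 19 letters: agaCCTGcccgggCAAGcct
Gtse1, chr15:85859945-85859964, plus strand, 19 letters: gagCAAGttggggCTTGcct
Cd80, chr16:38458822-38458841, plus strand, 18 letters: gaaCAGGcctggaCAAGtca
Zfp365, chr10:67912706-67912725, minus strand, 18 letters: agaCTAGgctgggCAAGact

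The *Cdkn1a* stretch lies from -51 to -32 bases of the upstream RefSeq start site of that gene, and the *Ccng1* stretch from -195 to -176. A further *Cdkn1a* window, chr17:29093519-29093818, belongs to a later start site, and its best stretch had 13 fitting letters. The windows that hold the *Cdkn1a* and *Ccng1* stretches are given whole, with the 20 bases of the stretch in capitals. A match of letters describes the sequence and is not a bound site.
Cdkn1a window, chr17:29090729-29091028, plus strand: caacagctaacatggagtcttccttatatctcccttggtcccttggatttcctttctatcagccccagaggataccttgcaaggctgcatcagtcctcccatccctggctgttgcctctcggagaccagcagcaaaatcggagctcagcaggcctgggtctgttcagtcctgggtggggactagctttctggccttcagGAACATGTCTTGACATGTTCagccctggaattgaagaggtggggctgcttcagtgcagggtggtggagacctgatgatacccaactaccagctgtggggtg
Ccng1 window, chr11:40755237-40755536, minus strand: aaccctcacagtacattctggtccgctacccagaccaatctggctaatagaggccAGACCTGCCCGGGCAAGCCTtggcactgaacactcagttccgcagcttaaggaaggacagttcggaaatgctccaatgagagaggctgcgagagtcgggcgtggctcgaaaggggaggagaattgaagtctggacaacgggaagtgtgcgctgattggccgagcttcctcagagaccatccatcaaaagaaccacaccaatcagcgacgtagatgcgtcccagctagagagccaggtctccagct

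Before the values, 4 of the 39 knockout members need naming. Each had more UMIs of 19 fibroblast markers (collagens, *Lum*, *Dcn*, *Thy1* and others, without *Fn1*, which ES cells of both libraries also gave) than of 18 ES cell markers (*Pou5f1*, *Nanog*, *Zfp42*, *Esrrb* and others). No wild-type member and no cell of the rest of either library did so. The first had 18430 UMIs with 109 fibroblast and 90 ES marker UMIs, 85 of the latter from *Klf4* and 1 from *Pou5f1*, and 132 of the 326 *Cdkn1a* UMIs of all knockout members came from it. The second had 5069 UMIs with 89 fibroblast and 0 ES marker UMIs, the third 3710 UMIs with 7 and 2, and the fourth 3305 UMIs with 34 and 2. Their collagen share, 0.027% to 0.244%, was under the limit of the choice. The label ES cell does not hold for these 4 by their markers, so the main knockout values are given with them and again after they were removed and 39 of the remaining 775 cells chosen. Scrublet, a doublet caller, marked none of the 4.

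Most members had the markers of ES cells. *Pou5f1*, the core pluripotency factor, had a UMI in 64 of 68 wild-type and 36 of 39 knockout members, and in 38 of the 39 chosen without the 4 cells. *Zfp42* had one in 62, 35 and 39. How many of these UMIs came from RNA free in the droplets was not gauged. The 18 ES markers together stood at 6242 CPM (counts scaled to 1000000 UMIs) in wild-type members against 6128 in the rest, a ratio of 1.02 (0.976 to 1.06). In the knockout the ratio was 0.972 (0.924 to 1.02), and 1.05 (0.999 to 1.10) without the 4 cells. The keratin gene *Krt18* and the endoderm factor *Sox17* had 0 UMIs in members of both libraries, but only 4 to 11 in the rest, so no difference in them was detectable. The 7 trophectoderm and epithelial markers summed to 21 wild-type and 18 knockout member UMIs, ratios of 1.09 (0.670 to 1.69) and 1.53 (0.896 to 2.46), and 1.68 (0.998 to 2.67) without the 4 cells. When cells were ranked after thinning to 2000 UMIs each, both ratios fell under 1, to 0.604 among wild-type cells and 0.446 in the knockout. Of these *Tfap2c* had 1.65 (0.996 to 2.60), 1.94 and 2.18 (1.14 to 3.83). In the 19 fibroblast markers wild-type members had 29 UMIs, 82.4 CPM against 47.5 in the rest, a ratio of 1.73 (1.15 to 2.53). Knockout members had 249 UMIs and a ratio of 24.6 (20.6 to 29.4), and 10 UMIs and 1.02 (0.484 to 1.91) without the 4 cells. *Col1a1* had a UMI in 11 of the 68 wild-type members and in 131 of the 1294 cells of the rest.

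The 6-gene share had no gap at the limit of the choice. In the wild-type library the lowest member had 0.161% (10 of 6198 UMIs) and the highest cell outside 0.161% (7 of 4361). In the knockout library the lowest member had 0.150% (4 of 2659) and the highest cell outside 0.150% (10 of 6650). The median member had 0.192% among wild-type cells and 0.189% in the knockout, against 0.0455% in the knockout rest and 0.0451% in the wild-type rest. In UMIs this was a median of 10 and 12 per member against 3 and 4 per cell of the rest.

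**Figure D1:**
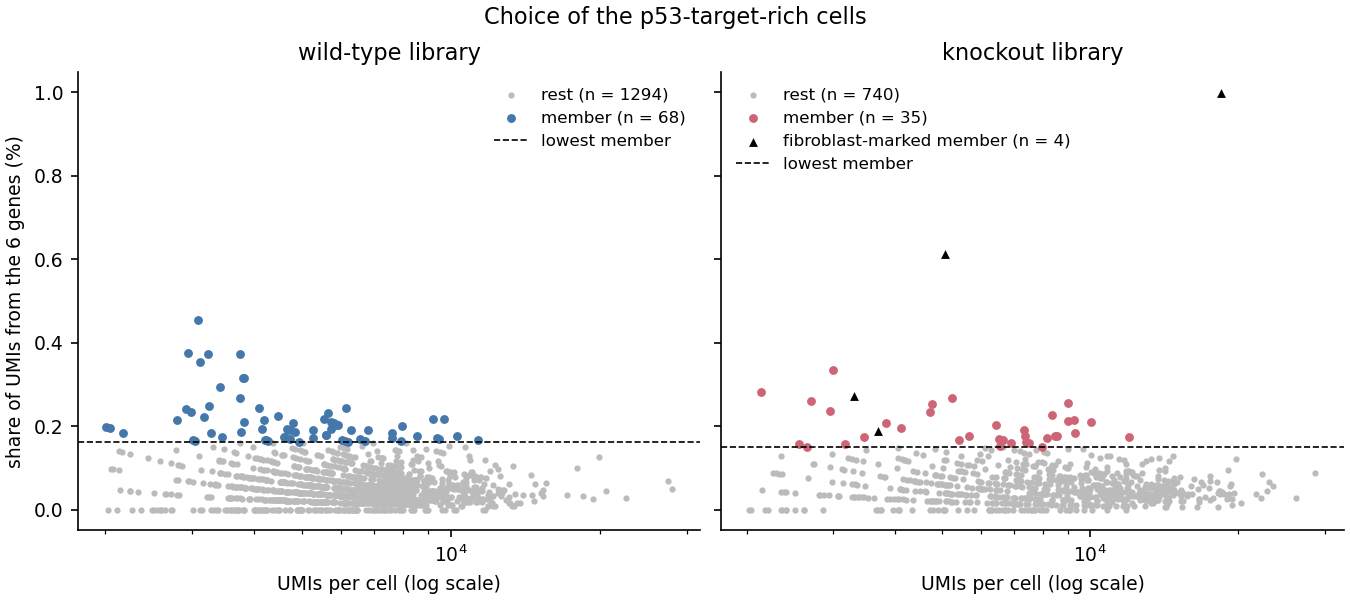
Each point is 1 eligible cell, with its UMIs on the horizontal axis (log scale) and the percentage of them from the 6 genes on the vertical axis, for the 1362 wild-type and 779 knockout cells. Members lie above the dashed line of the lowest member without a gap, and the highest knockout values, 0.998% and 0.612%, belong to 2 of the 4 fibroblast-marked cells (triangles).

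The members were shallower than the rest. Their median was 4729 UMIs against 6412 among wild-type cells, and 6528 against 8189 in the knockout. When the cells of a library were split into 5 equal parts by UMIs, the shallowest part held 30 of the 68 wild-type members and the 2 deepest parts together 11. In the knockout the shallowest part held 14 of 39 and the 2 deepest together 5. Choosing the top 5% within each depth part instead kept 49 wild-type and 29 knockout members. After every cell was thinned to 2000 UMIs before ranking, 31 and 17 stayed members.

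How many of the 6 genes a cell showed follows in part from the choice, since members have more UMIs of them, and is a description. Among wild-type cells 63 of 68 members (92.6%) had UMIs of 3 or more of them, against 482 of 1294 cells of the rest (37.2%). In the knockout these were 36 of 39 (92.3%) and 353 of 740 (47.7%). All 6 were seen in 6 wild-type and 4 knockout members, and 2 wild-type members had UMIs of only 1 of them.

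The levels of the 6 genes in the members follow from the choice and are a description. *Cdkn1a* (chromosome 17, 29090976 to 29100727, plus strand, GRCm38), encoding the cyclin-dependent kinase inhibitor p21, stood at 711 CPM (625 to 804) in wild-type members and 186 (177 to 195) in the rest. In the knockout it stood at 1305 CPM (1167 to 1455) in members and 158 (149 to 168) in the rest, and at 809 (700 to 931) in members without the 4 cells. The ratio was thus 3.82 among wild-type cells, 8.25 in the knockout and 5.19 without the 4 cells. *Mdm2* (chromosome 10, 117688875 to 117710758, minus strand) stood at 475 CPM (405 to 552) against 107 among wild-type cells. In the knockout it was at 464 (384 to 557) against 110, and at 320 without the 4 cells. Its ratios were 4.42, 4.23 and 2.91.

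*Ccng1* (chromosome 11, 40748552 to 40755311, minus strand), encoding cyclin G1, stood at 361 CPM in wild-type members (96.0 in the rest) and at 400.4 in knockout members (111 in the rest). Its ratio was 3.76 and 3.61, and 2.99 without the 4 cells. *Trp53inp1* (chromosome 4, 11156431 to 11174379, plus strand) was at 296 CPM in wild-type members (56.6 in the rest) and 152 in knockout members (48.1 in the rest), ratios of 5.22 and 3.16 and, without the 4 cells, 3.49. *Phlda3* (chromosome 1, 135766119 to 135769136, plus strand) was at 114 against 34.8 CPM and 236 against 52.9, ratios of 3.26, 4.47 and 3.87. *Zmat3* (chromosome 3, 32334792 to 32366014, minus strand) rested on 25 and 16 member UMIs, with ratios of 3.09, 2.45 and 2.38.

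Barcodes under 500 UMIs, the shallowest of the files, were taken as a gauge of free RNA. Whether they hold only free RNA was not tested. The 6 genes stood at 563 CPM (495 to 637) in 2472 such wild-type barcodes and at 526 (473 to 584) in 4423 knockout ones, close to the rest (504 and 506 CPM) and below the members (2027 and 2623). At a fixed 2000 UMIs per cell, *Cdkn1a* would be seen in 74.8% of wild-type members and 30.2% of the rest, at median depths of 4729 and 6412 UMIs. The unthinned shares with a *Cdkn1a* UMI were 94.1% and 62.6%. That members lie above these barcodes and above the rest follows from the choice and is a description. It does not show how much free RNA the members hold.

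To ask whether the 6 genes go together without counting the gene that made the choice, each was left out in turn. The top 5% were then chosen by the other 5, and the left-out gene was compared between these cells and the rest. Among wild-type cells all 6 left-out genes were higher in the chosen cells, with intervals above 1. No share of all genes is given for these choices, so how unusual this count is cannot be read from it. *Trp53inp1* had the largest ratio, 3.03 (2.301 to 3.93), at 185 against 61.1 CPM. It was followed by *Mdm2* with 2.59 (2.09 to 3.18), *Ccng1* with 2.40 (1.90 to 2.995), *Phlda3* with 2.31 (1.53 to 3.36), *Cdkn1a* with 2.18 (1.84 to 2.57) and *Zmat3* with 2.11 (1.23 to 3.42). These intervals overlap, so the order of neighbours is not larger than the counting error.

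In the knockout *Cdkn1a* had a ratio of 4.51 (3.89 to 5.21), which became 1.66 (1.31 to 2.08) without the 4 fibroblast-marked cells. *Mdm2* went from 3.27 (2.60 to 4.07) to 2.02 (1.505 to 2.65). The other 4 moved less on leaving the 4 cells out. *Phlda3* went from 3.64 to 3.19 (2.25 to 4.42), *Ccng1* from 2.38 to 2.14 (1.61 to 2.80), *Trp53inp1* from 1.78 to 1.94 (1.22 to 2.97), and *Zmat3*, whose interval with the 4 cells included 1, from 1.80 (0.914 to 3.23) to 1.97 (1.03 to 3.46). The cells chosen without *Cdkn1a* shared 51 of 68 wild-type and 23 of 39 knockout cells with the members.

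**Figure D2:**
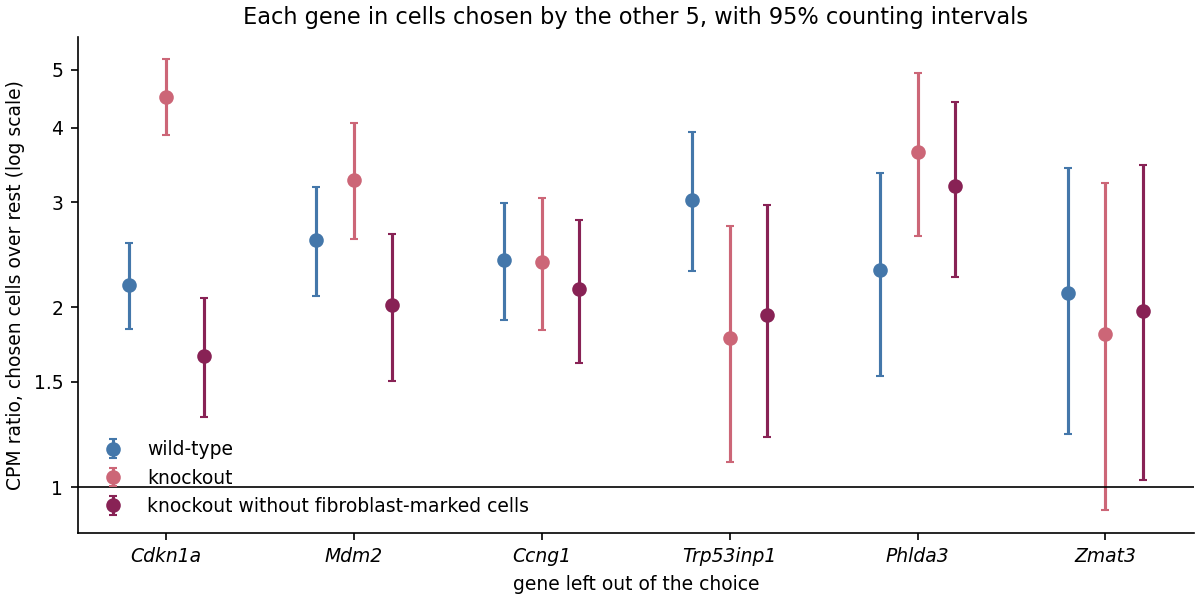
Ratio of CPM (log scale) of each gene between cells chosen by the other 5 genes and the rest, with exact 95% counting intervals. Without the 4 fibroblast-marked cells (n = 39 chosen of 775) all 6 knockout ratios lie between 1.66 and 3.19, beside 2.11 to 3.03 among wild-type cells.

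A further 52 genes that p53 is known to activate were not used in the choice. Summed, these held-out targets stood at 2766 CPM in wild-type members and 1654 in the rest, a ratio of 1.67 (1.57 to 1.78). In the knockout they stood at 3616 against 1967 CPM, a ratio of 1.84 (1.72 to 1.97), and at 3059 CPM with a ratio of 1.56 (1.44 to 1.68) without the 4 cells. By cell, the wild-type members had 0.0665% to 0.550% of their UMIs from these genes, with a median of 0.264% against 0.158% in the rest. The knockout members had 0.194% to 0.928%, with a median of 0.308% against 0.193%, and the highest value was that of the first fibroblast-marked cell. Chosen without the 4 cells they had 0.104% to 0.598%, with a median of 0.3003% against 0.193%. Of the wild-type members 60 of 68 (88.2%, exact binomial interval 78.1% to 94.8%) lay above the median of the rest, and of the knockout members 39 of 39 (91.0% to 100%), or 38 of 39 (97.4%, 86.5% to 99.9%) without the 4 cells. The ranges of members and rest overlapped in both libraries.

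Single genes were compared where they had at least 200 UMIs over the eligible cells of each library, which 17 of the 52 held-out targets and 5460 genes in all did, the 6 genes of the choice aside. A gene was called where its members' CPM was at least 1.5-fold that of the rest or its inverse. Among wild-type cells 7 of the 17 targets were called higher, where 4.62% of all genes were, and 0 lower, where 8.48% were. In the knockout 6 were called higher and 0 lower, against 8.35% and 13.8% of all genes. The 5 called higher in both libraries were *Plk2*, *Btg2*, *Eda2r*, *Ddit4* and *Rap2b*, where 1.59% of all genes were. Without the 4 cells these 5 were still called in both, *Rap2b* with 1.64 (0.9896 to 2.58), where 1.45% of all genes were. The median ratio of the 17 was 1.44 among wild-type cells and 1.31 in the knockout, beside 0.971 and 0.953 over all genes. Of the 17, 14 had a ratio over 1 in both libraries, as had 24.8% of all genes.

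The arrest genes ranged widely. *Plk2*, a polo-like kinase that p53 induces, was at 210 CPM against 40.7 among wild-type cells, a ratio of 5.16 (3.97 to 6.65). In the knockout its ratio was 3.71, and 3.57 (2.67 to 4.69) without the 4 cells. *Btg2*, an antiproliferative cofactor that is also an immediate-early gene, was at 153 against 44.4 CPM, a ratio of 3.46 (2.55 to 4.61). Its knockout ratio of 7.67 became 3.60 (2.64 to 4.82) without the 4 cells, 1 of which gave 56 of its 115 member UMIs. *Rchy1*, a ubiquitin ligase acting on p53, had 1.63 (1.15 to 2.26) among wild-type cells and 1.19 in the knockout. *Gtse1*, whose window holds the stretch shown above and which acts in G2, had 1.49 (1.13 to 1.93) and 1.31. *Gadd45a*, a damage-response gene, had 1.18 (0.869 to 1.57) and 1.13.

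The death genes were uneven. *Eda2r*, a TNF receptor family member, was at 128 against 39.1 CPM among wild-type cells, a ratio of 3.27 (2.34 to 4.47), and had 2.09 in the knockout and 1.96 (1.14 to 3.16) without the 4 cells. *Bax*, the pore-forming death effector, did not stand apart, with 0.942 (0.712 to 1.22) among wild-type cells and 1.19 in the knockout. *Aen*, an apoptosis-enhancing nuclease, had 0.973 and 1.46, *Siva1* 1.245 and 1.08, and *Ei24* 1.31 and 2.02, the latter 1.247 (0.743 to 1.97) without the 4 cells. As a list, the 11 apoptosis genes had a summed ratio of 1.41 (1.24 to 1.60) among wild-type cells, 1.62 in the knockout and 1.39 (1.21 to 1.60) without the 4 cells. The 9 arrest genes had 1.90 (1.68 to 2.14), 2.25 and 1.80 (1.57 to 2.05). The 10 metabolic targets had 1.31 (1.11 to 1.55), 1.56 and 1.39 (1.15 to 1.66), the 6 DNA repair targets 1.46 (1.02 to 2.03), 1.57 and 0.944 (0.555 to 1.51), and the 16 other targets 2.31 (2.01 to 2.65), 1.9998 and 1.84 (1.54 to 2.19).

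Among the metabolic targets *Ddit4*, an inhibitor of mTORC1 that other stresses also induce, was at 76.7 against 28.2 CPM, a ratio of 2.72 (1.76 to 4.05), with 2.58 in the knockout and 2.16 (1.32 to 3.37) without the 4 cells. *Sesn2*, another mTORC1 inhibitor, had 1.27 (0.957 to 1.64) and 1.22, and *Prkab1*, an AMPK subunit, 1.07 and 1.49. *Tigar*, which lowers glycolytic flux, had 0.858 (0.540 to 1.30) and 0.679. Of the other targets *Psrc1*, a spindle-associated gene, had 2.46 (1.85 to 3.21) among wild-type cells and 1.26 in the knockout, *Rap2b*, a small GTPase, 2.12 (1.45 to 3.01) and 1.73, and *Fbxw7*, a ubiquitin ligase subunit, 1.44 (0.956 to 2.10) and 1.29.

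Of the 35 held-out targets under the minimum, 21 had a ratio over 1 in both libraries and 6 under 1 in both, and 21 and 9 without the 4 cells, with a target at 0 member UMIs counted as under 1. Of 16562 other genes under the minimum and in the same ranges of UMIs, 20.2% were over 1 in both and 35.8% under 1 in both, and 18.9% and 36.8% without the 4 cells. These genes share the range of the targets, 4 to 247 wild-type and 2 to 240 knockout UMIs, but were not matched to their distribution. A gene with very few UMIs can seldom be over 1 in both. How much of the contrast comes from counts was not tested. At the low end *Plk3*, *Gls2* and *Xpc* had 2, 2 and 3 wild-type member UMIs and ratios of 0.275 (0.0331 to 1.01), 0.432 (0.0517 to 1.60) and 0.491 (0.100 to 1.46), with 1.47, 1.45 and 0.446 in the knockout. These and the 4 that follow were chosen after their values were seen. *Cd80* and *Zfp365*, with the matching stretches above, had 13 and 8 wild-type member UMIs and ratios of 3.54 (1.82 to 6.36) and 2.57 (1.07 to 5.32), and knockout ratios of 3.46 (1.78 to 6.19) and 2.23 (0.793 to 5.10) without the 4 cells. *Perp*, a membrane effector of p53-dependent death, had 15 wild-type member UMIs and a ratio of 8.95 (4.61 to 16.5), with 6.61 (2.80 to 13.9) in the knockout without the 4 cells. *Bbc3*, encoding PUMA, had 2.17 (1.19 to 3.68) and 2.09 (1.12 to 3.60).

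**Figure D3:**
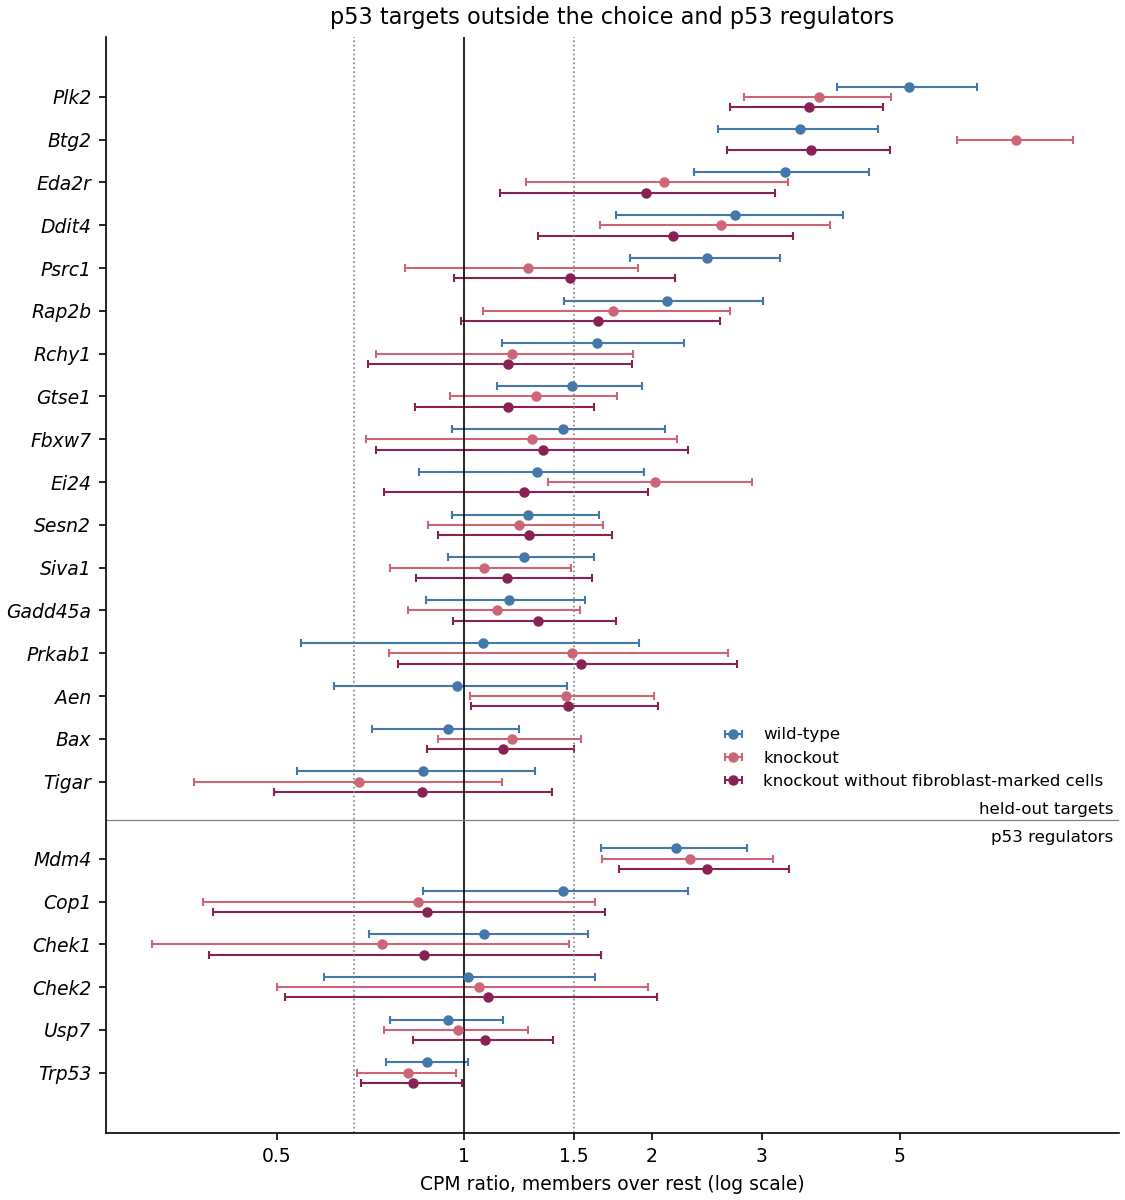
Ratio of CPM between members and the rest (log scale) for the 17 held-out p53 targets and 6 p53 regulators with at least 200 UMIs in each library, with exact 95% counting intervals and dotted lines at 1.5-fold. *Plk2*, *Btg2*, *Eda2r*, *Ddit4* and *Rap2b* lie beyond 1.5-fold in all 3 sets, *Mdm4* does among the regulators, and *Trp53* lies below 1.

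The genes that control p53 stood level as a sum. The 11 regulators summed to 1245 CPM in wild-type members and 1232 in the rest, a ratio of 1.01 (0.916 to 1.11), with 0.978 (0.866 to 1.10) in the knockout. *Trp53*, the gene of p53 itself, was at 512 against 586 CPM among wild-type cells, a ratio of 0.873 (0.748 to 1.01). It was at 488 against 602 CPM in the knockout, 0.811, and had 0.826 (0.683 to 0.991) without the 4 cells. *Mdm4*, the MDM2 partner that inhibits p53, was the only regulator of the 6 compared that was called, at 173 against 79.3 CPM among wild-type cells, 2.19 (1.66 to 2.84). In the knockout it was at 180 against 78.1 CPM, 2.31, and had 2.45 (1.77 to 3.32) without the 4 cells. Of all genes 1.59% were called higher in both libraries. *Usp7*, which deubiquitinates p53 and MDM2, had 0.943 and 0.978, *Cop1* 1.44 and 0.842, *Chek1* 1.08 and 0.738, and *Chek2* 1.02 and 1.06.

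Across all genes 87 were called higher and 112 lower in both libraries. Without the 4 cells these were 79 and 97 genes, or 1.45% and 1.78%, beside 1.59% and 2.05% with them. A gene at the minimum of 200 UMIs would have 7.68 member UMIs among wild-type cells and 7.33 in the knockout at a ratio of 1, so the fold of 1.5 lies within the counting error of such genes. Of the 87 genes 48 had both intervals above 1, and of the 112 genes 36 had both below 1. Of the 87, 32 were also past 1.5-fold in both libraries among cells chosen within depth parts.

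The 12 genes with the largest smaller-of-2 ratio were *Plk2*, *Btg2*, *Sdc4*, *Rtkn*, *Wdr35*, *Ddit4*, *Jun*, *Plxnb2*, *Lpin1*, *Mdm4*, *Fat1* and *Map3k7*. Of them 4 were on the p53 lists, *Plk2*, *Btg2* and *Ddit4* as held-out targets and *Mdm4* as a regulator. Of the 5460 genes compared, 17 were held-out targets and 6 were regulators. *Sdc4*, a cell-surface proteoglycan, was at 449 against 147 CPM among wild-type cells, 3.05 (2.57 to 3.61), and had 3.57 in the knockout and 3.63 (2.96 to 4.43) without the 4 cells. *Wdr35*, a component of ciliary transport, had 3.98 (2.84 to 5.47) and 2.60. *Fat1*, a giant cadherin, had 2.11 (1.58 to 2.78) and 2.85. *Plxnb2*, *Lpin1* and *Map3k7* had 3.02, 2.98 and 2.11 among wild-type cells and 2.41, 2.23 and 2.14 in the knockout. Without the 4 cells the knockout ratios of *Plxnb2* and *Lpin1* were 1.57 (0.801 to 2.81) and 1.503 (0.788 to 2.62).

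The 12 genes at the low end had few member UMIs. *Wee1*, the kinase that holds CDK1 inactive before mitosis, had 14 wild-type member UMIs at 39.8 against 85.8 CPM, 0.464 (0.252 to 0.783), and 0.319 in the knockout. *Pold1*, a subunit of the replicative DNA polymerase delta, had 5 UMIs and 0.394 (0.127 to 0.929), with 0.299 in the knockout. *Trib3*, an ATF4 target, had 6 UMIs and 0.348 (0.127 to 0.764), with 0.403. *Pcbp4*, an RNA-binding protein, had 0.272 (0.0995 to 0.597) and 0.424. The others were *Acot7*, *Eif2b4*, *Trim44*, *4930526A20Rik*, *Rangrf*, *Fam169a*, *Mrps24* and *Hirip3*, with 1 to 11 wild-type and 2 to 10 knockout member UMIs. Within depth parts *Trim44* (1.07), *Fam169a* (0.874) and *Wee1* (0.674) were short of the fold among wild-type cells. *Hirip3* (0.876), *Rangrf* (0.792) and *Trib3* (0.744) were short of it in the knockout. The rest of the 12 genes were past it in both libraries.

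Genes of DNA replication were lower as a sum. The 23 S phase genes had a summed ratio of 0.900 (0.853 to 0.9496) among wild-type cells, 0.744 (0.691 to 0.801) in the knockout and 0.814 (0.758 to 0.874) without the 4 cells, and 0 of 21 compared were called lower in both libraries, where 2.05% of all genes were. *Pcna*, the polymerase clamp and a p53 target in its own right, had 1.01 (0.880 to 1.15) and 0.771, *Mcm2* 0.868 and 0.727, *Hells* 0.861 and 0.787, and *Mcm3* 0.879 and 0.707. The 24 G2/M genes had 0.858 (0.807 to 0.912) and 0.894 (0.830 to 0.962), but 1.03 (0.955 to 1.10) in the knockout without the 4 cells. *Top2a* had 0.870 and 0.764, and *Ube2c* 0.783 and 0.809. Of the D-type cyclins *Ccnd3* had 0.779 (0.627 to 0.958) and 0.630, and *Ccnd1* 0.601 (0.428 to 0.822) and, in the knockout, 1.41 with and 0.652 without the 4 cells. Of 6 other kinase inhibitor genes only *Cdkn2d* had enough UMIs to compare, with 1.27 (0.666 to 2.21) and 0.767.

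The 21 nucleolar genes, which make and process ribosomal RNA, had a summed ratio of 0.907 (0.876 to 0.939) among wild-type cells, 0.764 (0.726 to 0.804) in the knockout and 0.847 (0.805 to 0.890) without the 4 cells. Of 20 compared 2 were called lower in both, with and without the 4 cells, where 2.05% and 1.78% of all genes were. They were *Nolc1* with 0.637 and 0.486 and *Nhp2* with 0.642 and 0.588. *Ncl*, encoding nucleolin, was at 2189 against 2729 CPM among wild-type cells, 0.802 (0.745 to 0.862), and had 0.725 in the knockout, while *Npm1* had 1.01 (0.954 to 1.06) and 0.844. The 86 ribosomal protein genes had 0.935 (0.924 to 0.946) and 0.952 (0.939 to 0.964). The 13 ATF4 stress-response genes, *Atf4* itself among them, had 0.740 (0.665 to 0.822) and 0.738 (0.654 to 0.829). Of 10 compared 2 were called lower in both, beside 2.05% of all genes. They were *Trib3* and *Mthfd2*, a mitochondrial folate enzyme with 0.496 and 0.448. The 11 glycolysis genes had 0.853 (0.815 to 0.893) and 0.815 (0.778 to 0.854), *Gapdh* having 0.895 and 0.803. The 15 cholesterol synthesis genes had 0.918 (0.832 to 1.01) and 0.715 (0.627 to 0.813), with 3 of 13 called lower in both, *Fdps*, *Cyp51* and *Dhcr7*, and 2 of 13 without the 4 cells, beside 2.05% and 1.78% of all genes. Within depth parts *Fdps* had 0.710 and 0.602, *Cyp51* 0.810 and 0.495, *Dhcr7* 0.839 and 0.787, and *Mthfd2* 0.687 and 0.439.

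Pluripotency genes were near level as sums. The core list (*Pou5f1*, *Sox2*, *Nanog* and 5 more) had 1.01 (0.945 to 1.07) among wild-type cells and 0.906 (0.843 to 0.974) in the knockout, and 1.04 (0.974 to 1.12) without the 4 cells. The naive list (*Zfp42*, *Esrrb*, *Klf4* and 7 more) had 1.03 (0.971 to 1.10) and 1.05 (0.974 to 1.12). Within it *Klf2* had 0.847 (0.649 to 1.09), 0.685 (0.490 to 0.934) and, without the 4 cells, 0.691 (0.492 to 0.945). *Klf4* had 1.17 (1.02 to 1.33), 1.53 (1.33 to 1.76) and, without the 4 cells, 1.04 (0.866 to 1.23). *Nanog*, which p53 is known to repress in differentiating ES cells, was at 330 against 307 CPM among wild-type cells, 1.07 (0.883 to 1.29), and had 1.01 in the knockout. The 8 primed epiblast genes had 1.03 (0.749 to 1.37) and 1.05 (0.684 to 1.56). The 19 genes of the 2-cell embryo (*Zscan4a*, *Duxf3* and others) had 1 UMI in wild-type members and 0 in knockout members, against 30 and 26 in the rest, so at this depth no difference in them was detectable. The 10 BCL2 family genes had 0.994 (0.865 to 1.14) and 1.24 (1.07 to 1.43), the latter 1.15 (0.984 to 1.34) without the 4 cells. The 7 heat shock genes had 1.04 (0.997 to 1.08) and 0.977 (0.928 to 1.03). *Hsph1* was the 1 of 5 called lower in both (2.05% of all genes), with 0.476 and 0.652 (0.778 in the knockout without the 4 cells). Within depth parts *Hsph1* had 0.538 and 0.787.

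Immediate-early genes, switched on by serum, stress and cell dissociation, were higher as a sum. The 13 genes had 1.254 (1.14 to 1.37) among wild-type cells, 2.44 (2.25 to 2.64) in the knockout and 1.48 (1.33 to 1.64) without the 4 cells. Of 9 compared 2 were called higher in both, *Jun* and *Egr1*, where 1.59% of all genes were, and *Myc* was called lower among wild-type cells, with 0.524 (0.191 to 1.15) on 6 member UMIs. *Egr1* was at 361 against 227 CPM among wild-type cells, 1.59 (1.32 to 1.90), and had 3.30 in the knockout and 1.88 (1.46 to 2.38) without the 4 cells. *Jun* had 20 wild-type member UMIs, 40% of them from 1 cell, and 2.43 (1.46 to 3.86). Within depth parts *Egr1* had 1.42 among wild-type cells, short of the fold, and 2.48 in the knockout, and *Jun* had 1.77 and 3.40. *Fos* had 1.23 (0.9305 to 1.60) and *Ier2* 1.06 (0.864 to 1.29) among wild-type cells. In the knockout 6 of the 9 were called higher, where 8.35% of all genes were, with a median ratio of 2.63, and 6 without the 4 cells, with a median of 1.505. Without those cells *Fos* had 1.51 (1.02 to 2.15), *Zfp36* 2.04 (1.23 to 3.22) and *Dusp1* 1.14 (0.833 to 1.52).

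Transcripts that stay in nuclei or mitochondria were also higher in the members as sums. The 37 mitochondrial genes stood at 19772 against 15536 CPM among wild-type cells, 1.27 (1.24 to 1.30), and at 1.21 (1.18 to 1.24) in the knockout. Among cells chosen within depth parts these were 1.29 and 1.07. The 4 nuclear long non-coding RNAs had 1.30 (1.247 to 1.35) and 1.46 (1.37 to 1.56), *Malat1* having 1.36 and 1.44 and *Neat1*, the 1 of 4 called higher in both (1.59% of all genes) and itself a known p53 target, 1.63 (1.01 to 2.503) and 3.88, and 2.35 (1.37 to 3.81) in the knockout without the 4 cells. *Kcnq1ot1* had 1.41 and 1.44. *Meg3* was lower among wild-type members, 0.847 (0.730 to 0.978), and higher in the knockout, 1.39 (1.16 to 1.65). Within depth parts *Neat1* had 1.13 among wild-type cells, short of the fold, and 3.33 in the knockout. There *Malat1* had 1.38 and 1.31, *Kcnq1ot1* 1.09 and 1.27, and *Meg3* 0.883 and 1.24. The part of lower depth and of these shares in the values above was not tested.

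**Figure D4:**
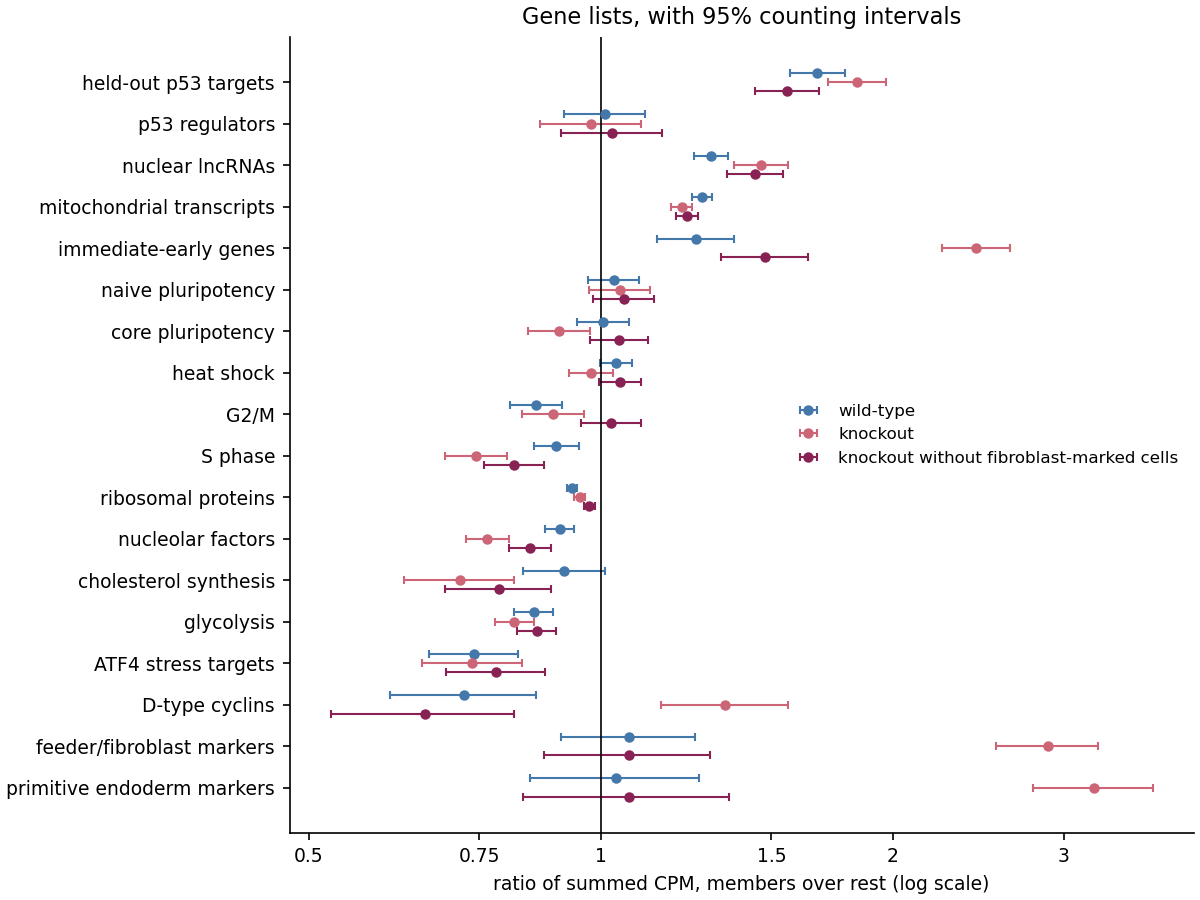
Ratio of summed CPM between members and the rest (log scale) for 18 gene lists, with exact 95% counting intervals. Held-out p53 targets lie right of 1 in all 3 sets and the ATF4 stress-response genes, *Atf4* among them, left of 1. With the 4 cells the knockout value was 2.89 for feeder and fibroblast markers, in a list of 17 that includes *Fn1*. For endoderm markers it was 3.22, and without the 4 cells these became 1.07 and 1.07.

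Whether such cells were commoner without LIN28A was asked on all eligible cells, since the choice fixes the share of members. *Lin28a* itself stood at 120 CPM in wild-type and 42.4 in knockout eligible cells, a ratio of 0.354 (0.310 to 0.404). Counts from transcript ends do not show whether the cut exon is intact. The 6 genes summed to 562 CPM among wild-type cells and 584 in the knockout, a ratio of 1.04 (0.996 to 1.08), which became 0.982 (0.942 to 1.02) without the 4 cells. At 2000 UMIs per cell, 52 of 779 knockout cells (6.68%, exact binomial interval 5.03% to 8.66%) had 4 or more UMIs of the 6 genes, the wild-type limit. Without the 4 cells the knockout share was 48 of 775 (6.19%, 4.60% to 8.13%). The limit was taken from the wild-type cells, so their own share, 86 of 1362 (6.31%), follows from it and is a description. The intervals count cells of 1 library and do not say whether the conditions differ.

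Single genes differed between the libraries in opposite directions. Over all eligible cells *Phlda3* was higher in the knockout, at 59.6 against 37.9 CPM, a ratio of 1.57 (1.36 to 1.82), and *Ccng1* at 121 against 106, 1.14 (1.04 to 1.26). *Trp53inp1* was lower, at 51.9 against 65.8, 0.790 (0.691 to 0.902). *Cdkn1a* had 0.971 (0.905 to 1.04) with and 0.869 (0.808 to 0.935) without the 4 cells, and *Mdm2* 1.01 (0.924 to 1.11). The held-out targets stood at 1696 CPM among wild-type cells and 2027 in the knockout, 1.20 (1.17 to 1.22). Library and genotype cannot be told apart here.

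Between the members of both libraries, the 6 genes stood at 2027 CPM among wild-type cells and 2623 in the knockout, and at 1893 without the 4 cells. The knockout ratio of members to rest divided by the wild-type ratio was 1.29 (1.15 to 1.45) for the 6 genes and 1.10 (1.001 to 1.21) for the held-out targets. Without the 4 cells these were 0.936 and 0.931. The 6-gene values follow from the choice made within each library and are a description, and their interval does not cover that choice. With the 4 cells, 1 cell gave 28.1% of the 6-gene UMIs of the knockout members. The genes whose ratio was largest in the knockout relative to the wild type were *Tmem138*, *Lgals1*, *Mrpl43*, *Cavin1* and *Gm5045*. *Lgals1*, encoding galectin-1, had 24 wild-type member UMIs and a ratio of 1.17 (0.743 to 1.76), and 97 knockout member UMIs and a ratio of 10.7, which became 0.571 (0.184 to 1.35) without the 4 cells. *Tmem138*, *Mrpl43* and *Gm5045* had 1, 1 and 2 wild-type member UMIs, with ratios of ratios of 14.2 (1.81 to 112), 8.66 (1.08 to 69.8) and 7.02 (1.56 to 31.6). At the other end were *Msi1*, *Zfp991*, *Thop1*, *Cpsf3* and *AW822252*. *Msi1* had 18 wild-type and 1 knockout member UMIs and a ratio of ratios of 0.0854 (0.0113 to 0.644), which became 0.177 without the 4 cells, and *Zfp991*, *Thop1* and *Cpsf3* also had 1 knockout member UMI each. *Cpsf3* went from 0.141 to 0.294 without the 4 cells.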

How the data were processed

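The authors made digital expression matrices from the inDrop reads with a published inDrop pipeline, and the submitters' processing notes name mm10 and Seurat 2.3.4. The aligner is not given in the sources used here. The deposited values are raw UMI counts per gene and barcode, whole numbers that summed to 12079546 (wild type) and 10027710 (knockout). They were used as deposited and no count model was fitted. Of 54146 gene identifiers 54079 matched a GENCODE symbol without the version number. Barcode names are serial numbers in each file, so a shared cell barcode could not be looked for. Of 1642 wild-type and 1110 knockout barcodes with at least 2000 UMIs, 239 and 279 were under 0.5% mitochondrial, 8 and 47 under 5% ribosomal protein, and the collagen limit removed 34 and 5. A barcode can fail more than 1 limit.

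UMIs were summed over cells and scaled to CPM, with exact Poisson intervals. Ratios have exact conditional binomial intervals, shares exact binomial (Clopper-Pearson) ones, and ratios of ratios log-scale counting intervals (Python 3.11.15, numpy 2.4.6, scipy 1.17.1, at a level of 95%). The ratio and interval code was tested on simulated data. Named genes are the 6 of the choice, the p53 targets and regulators with at least 200 UMIs in each library, from other lists the genes past 1.5-fold in both libraries and up to 4 with most UMIs, the 12 genes highest and lowest in both, and the 5 at each end of the ratio of ratios. Doublets were kept, and Scrublet in scanpy 1.11.5 marked 30 wild-type and 11 knockout barcodes, 0 and 1 of them members. The members and lists were chosen with earlier results of these data known.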

Additional observations from a re-analysis of the deposited data

Results flagged for a closer look

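In cells kept out of the choice, the 6 genes also gave signal. In barcodes under 500 UMIs they stood at 563 CPM (wild type) and 526 CPM (knockout), near the rest of the eligible cells. In the collagen-rich cells that the limit removed, 34 wild-type and 5 knockout, they stood at 4460 CPM (4251 to 4677) and 3393 CPM (2951 to 3883), above the 2027 and 2623 CPM of the members.

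The ratio of members to rest lay on opposite sides of 1 in the libraries for a pair of the genes at the ends of the ratio of ratios. Their intervals did not include 1, and the difference between conditions was not tested. Of the list genes named above Meg3 and Ccnd1 did so too. Meg3 had 0.847 (0.730 to 0.978) and 1.39 (1.16 to 1.65), and 1.36 (1.13 to 1.62) without the 4 cells. Ccnd1 had 0.601 (0.428 to 0.822) and 1.41 (1.03 to 1.89), and 0.652 (0.401 to 1.003) without them. Cavin1, a component of caveolae, had 0.336 (0.108 to 0.791) among wild-type cells on 5 member UMIs and 2.69 (1.65 to 4.18) in the knockout, so that the knockout ratio was 8.01 times the wild-type ratio, and 2.26 times without the 4 fibroblast-marked cells. Without them the knockout ratio of Cavin1 was 0.758 (0.275 to 1.68), on the same side of 1 as the wild-type ratio. AW822252, a transcript of unassigned function, had 2.14 (1.22 to 3.51) among wild-type cells and 0.309 (0.0634 to 0.914) on 3 member UMIs in the knockout, a ratio of ratios of 0.144, and 0.1999 without the 4 cells, where the knockout ratio was 0.428 (0.116 to 1.11) and its interval included 1.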

How the results depend on the processing

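The 6-gene ratio lay between 2.79 and 6.88 over 22 values from the alternatives, and the choice itself puts it over 1. The held-out ratio lay between 1.30 and 2.297 over 22 values and the left-out ratios between 1.41 and 4.27 over 48, all over 1. Moved values of the 6-gene ratio, wild type before knockout, were 4.53 and 6.88 for the top 2.5%, 3.63 and 4.10 for the top 10%, 2.79 and 3.73 after ranking at 2000 UMIs, and 3.68 and 4.41 within depth parts. It was 3.57 among wild-type cells with at least 5000 UMIs per cell. In the knockout it was 3.78 with a collagen share under 0.05%, 3.76 without the 4 fibroblast-marked cells (an alternative chosen after seeing the data) and 4.48 as a mean of shares per cell.

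The held-out ratio was 2.09 and 2.297 for the top 2.5%, 1.496 and 1.60 for the top 10%, and 1.30 among wild-type cells after ranking at 2000 UMIs. In the knockout it was 1.65 within depth parts, 1.58 with the lower collagen limit, 1.56 without the 4 cells and 1.67 as a mean of shares per cell. After ranking at 2000 UMIs the left-out ratio among wild-type cells was 1.58 for Cdkn1a, 2.07 for Mdm2 and 1.42 for Phlda3. In the knockout it was 1.47, 2.43 and 2.03 for these and 1.68 for Ccng1. Cdkn1a had 1.71 among wild-type cells with at least 5000 UMIs and 3.87 in the knockout within depth parts. Without the 4 cells Cdkn1a had 1.66 and Mdm2 2.02.

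Counts of genes past the fold moved with the minimum of UMIs per gene, the fold and the share of cells chosen. With at least 100 UMIs per gene they were 643 higher and 970 lower among wild-type cells, 1022 and 1389 in the knockout, and 210 and 265 in both. With at least 1000 UMIs they were 12 higher and 34 lower among wild-type cells, 30 and 98 in the knockout, and 2 and 13 in both. With no filter on genes they were 5340 higher and 13631 lower among wild-type cells, 5950 and 14531 in the knockout, and 1663 and 9638 in both. With a fold of 5 to 4 as enough they were 844 higher and 1170 lower among wild-type cells, 1054 and 1525 in the knockout, and 371 and 439 in both. At a fold of 2 they were 32 higher and 120 lower among wild-type cells, 131 and 263 in the knockout, and 16 and 14 in both. For the top 2.5% they were 518 higher and 910 lower among wild-type cells, 699 and 1424 in the knockout, and 158 and 331 in both. For the top 10% they were 90 higher and 173 lower among wild-type cells, 246 and 334 in the knockout, and 34 and 34 in both. After ranking at 2000 UMIs they were 154 higher and 277 lower among wild-type cells, 480 lower in the knockout, and 44 and 43 in both. Within depth parts they were 497 lower in the knockout, and 48 higher and 56 lower in both.

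The 6-gene level in the knockout over the wild type was 0.984 with the lower collagen limit and 0.982 without the 4 cells, and the knockout ratio over the wild-type ratio was 0.936 for the 6 genes and 0.931 for the held-out targets without them. The 6 DNA repair targets turned from 1.57 to 0.898 in the knockout with the lower collagen limit and to 0.944 without the 4 cells, and the trophectoderm markers from 1.53 to 0.446 after ranking at 2000 UMIs. Of the values that answer a comparison, 86 moved beyond the counting interval, or 1.5 times for a count, and 127 did not. Of the values of single lists 130 moved, 3 changed direction and 457 did neither. A change of direction was counted only where the main ratio was past 1.5-fold. Lists nearer to 1 that crossed it are thus not among the 3. The 3 D-type cyclins, for example, went from 1.34 to 0.659 in the knockout without the 4 cells. Apart from the 4 cells, whose removal is the construction of that alternative, the cause of these shifts was not tested. No paired analysis was possible because each condition has 1 library, so no replicate could be left out either.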
